A study of Homo sapiens with 27 samples.

Results

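Insertion sites of piggyBac-type transposons were examined in 7 very long genes that are known for their roles in neurons, CSMD1, LRP1B, CNTNAP2, CNTN5, NRXN3, CTNNA2 and DLG2, in a cell line of the gut. The genes were taken by symbol from a given list, and every listed site between their RefSeq bounds on GRCh38 was counted. They are 7 of 19974 protein-coding genes with a position in the table used, and 7 of the 314 that span at least 500 kb. The cells were HCT116, an established human colorectal carcinoma line. They carried a self-reporting transposon, which transcribes across its own end into the flanking DNA so that an insertion can be read from RNA, and they were kept in puromycin at 3 µg/ml for 2 weeks in all groups.

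The 27 libraries formed 9 groups of 3 replicates. The wild-type transposon met 4 transposases: piggyBac in WT_PB, its hyperactive form in WT_hyPB, its re-engineered form in WT_rePB and a form both re-engineered and hyperactive in WT_rehyPB. In short_PB and short_hyPB a short transposon was moved by piggyBac or the hyperactive form. In sym_rePB and sym_rehyPB a symmetric transposon was moved by the re-engineered or the doubly altered form. WT_PBat paired the wild-type transposon of piggyBat, a relative of piggyBac, with the piggyBat transposase. The labels do not spell out the changes behind the words re-engineered, short and symmetric, and they do not say whether replicates were separate cultures, so p-values measure the spread between these libraries only. By its title, the study concerns asymmetric transposon ends and a phosphorylated transposase terminus.

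piggyBac and its relatives insert at the 4-base sequence TTAA. Where in the genome they insert is known to vary with the openness of chromatin, and genes that a cell does not transcribe often lie in closed domains. The 7 genes encode large proteins of synapses, axons and cell contacts. CSMD1 is a transmembrane protein with complement-control domains, LRP1B a giant lipoprotein receptor relative, CNTNAP2 and CNTN5 are cell adhesion proteins of axons, NRXN3 is a presynaptic neurexin, CTNNA2 is the neuronal alpha-catenin and DLG2 a scaffold of the postsynaptic density. The peak lists hold positions of insertions and no expression values, so whether these genes were transcribed in the cells was not measured.

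A relative density was computed for each gene and library. It is the number of distinct sites per kb of the gene divided by the sites per kb of the whole genome in the same library, so that 1 is the genome mean. The 12 libraries of WT_PB, WT_hyPB, WT_rePB and WT_rehyPB were deep, with 336323 to 570354 sites each, or 0.111 to 0.1882 sites per kb. The other 15 libraries were shallow, with 2814 to 9212 sites, or 0.0009287 to 0.00304 sites per kb. Transposon type and depth therefore cannot be told apart in a comparison of shallow with deep libraries. WT_hyPB replicates 1 and 2 listed 75.4% and 76.3% of their sites in common, against at most 29% for any other pair of deep replicates. In WT_PBat, the overlap of replicates 1 and 3 made up 52.5% of the one list and 42.5% of the other, against at most 11% for the other pairs of that group. Results are given with all libraries, and each pair was also averaged into 1 sample. A peak had a maximum coverage, called its height below, of at least 5 in all lists.

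In the 12 deep libraries 6 of the 7 genes held fewer sites than their length would give at the genome mean, and LRP1B held more. Summed over the 7 genes, the relative density was 0.398 ± 0.0241 with piggyBac, 0.359 ± 0.00797 with the hyperactive form, 0.343 ± 0.0118 with the re-engineered form and 0.341 ± 0.0129 with both changes (SD, n = 3 each). Without LRP1B the 6 other genes were at 0.244 ± 0.0275, 0.211 ± 0.0102, 0.221 ± 0.00695 and 0.217 ± 0.00857 in the same order. The 6 genes were below 1 in 12 of 12 deep libraries, and LRP1B was above 1 in 12 of 12. The place of LRP1B depended on peak height. With a minimum height of 10 it averaged 1.17 in WT_PB and 1.12 in WT_hyPB. In WT_rePB it was then at 0.9235, from 0.889 to 0.952, and in WT_rehyPB at 0.963, from 0.927 to 1.01.

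**Figure D1:**
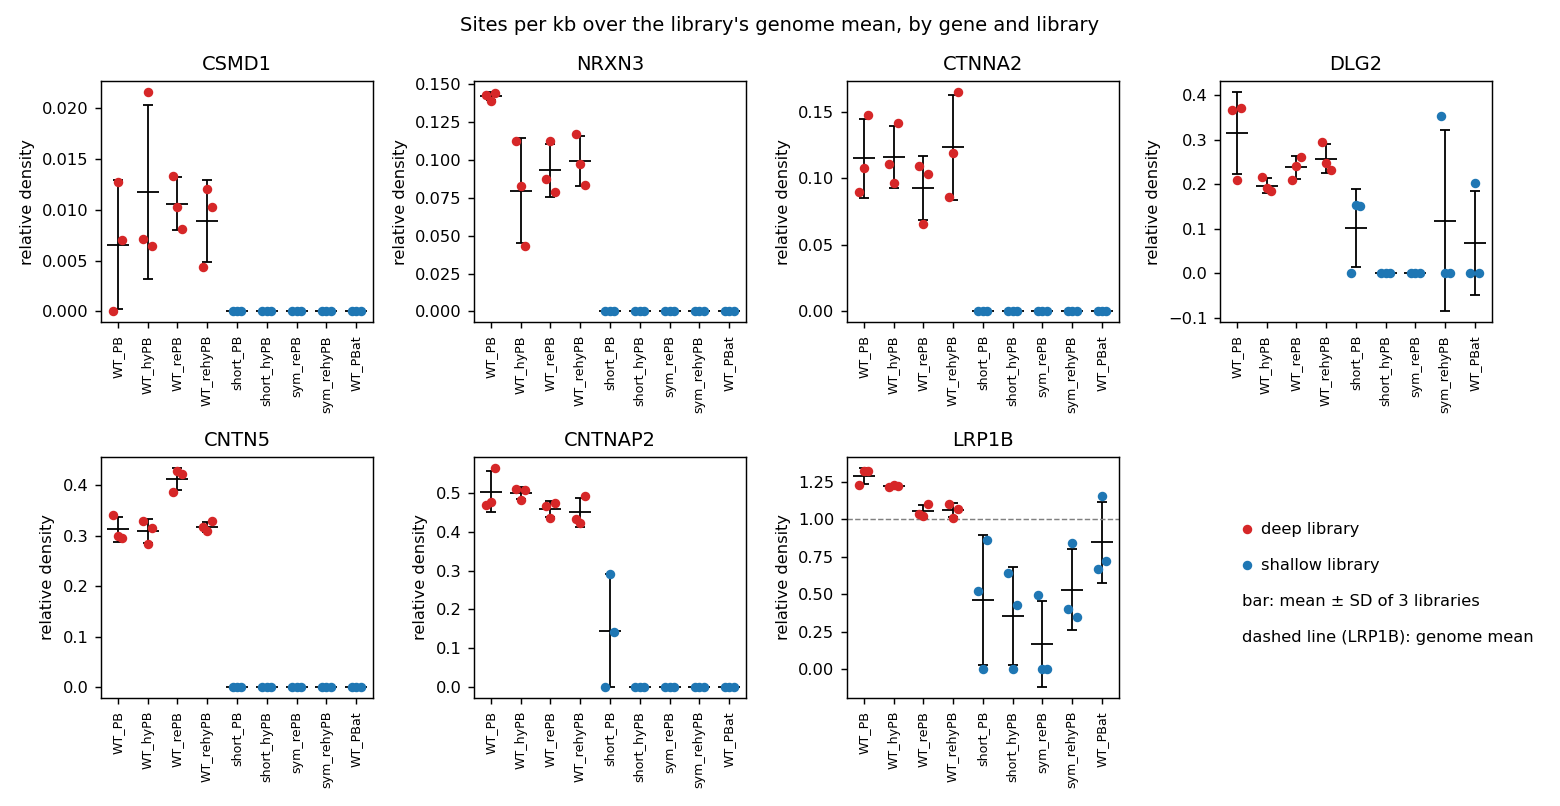
Relative density of sites (sites per kb over the library's genome mean, linear axis) of each of the 7 genes in 27 libraries, by group; points are libraries and bars the mean ± SD of 3 libraries, with a separate vertical scale per gene. LRP1B lies between 1.01 and 1.32 in the deep libraries, CSMD1 does not exceed 0.0216, and CSMD1, NRXN3, CTNNA2 and CNTN5 are at 0 in all 15 shallow libraries.

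Low density was common among long genes. The median of the 314 genes of at least 500 kb was 0.649 over the deep libraries (quartiles 0.263 and 1.07), and 221 of them (70.4%) were below 1. Above 100 kb, density fell from each length class to the next: protein-coding genes of 100 to 250 kb had a summed relative density of 1.4 ± 0.0211, those of 250 to 500 kb 1.27 ± 0.0195, those of 500 to 1000 kb 0.853 ± 0.0276, those of 1000 to 1500 kb 0.457 ± 0.0345 and the 18 genes above 1500 kb 0.333 ± 0.0206 (SD, n = 12 libraries). Counted from the lowest of the 314, CSMD1 ranked 16, NRXN3 61, CTNNA2 62, DLG2 77, CNTN5 93, CNTNAP2 125 and LRP1B 247, so that 6 of the 7 were in the lower part of the order. All 7 are above 1000 kb, however, and most of the 314 are shorter. The median gene was at 0.361 from 1000 to 1500 kb and at 0.188 above 1500 kb, members included. LRP1B, CNTNAP2 and DLG2 were above the median of their own class, and CNTN5, CTNNA2, NRXN3 and CSMD1 below it.

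**Figure D2:**
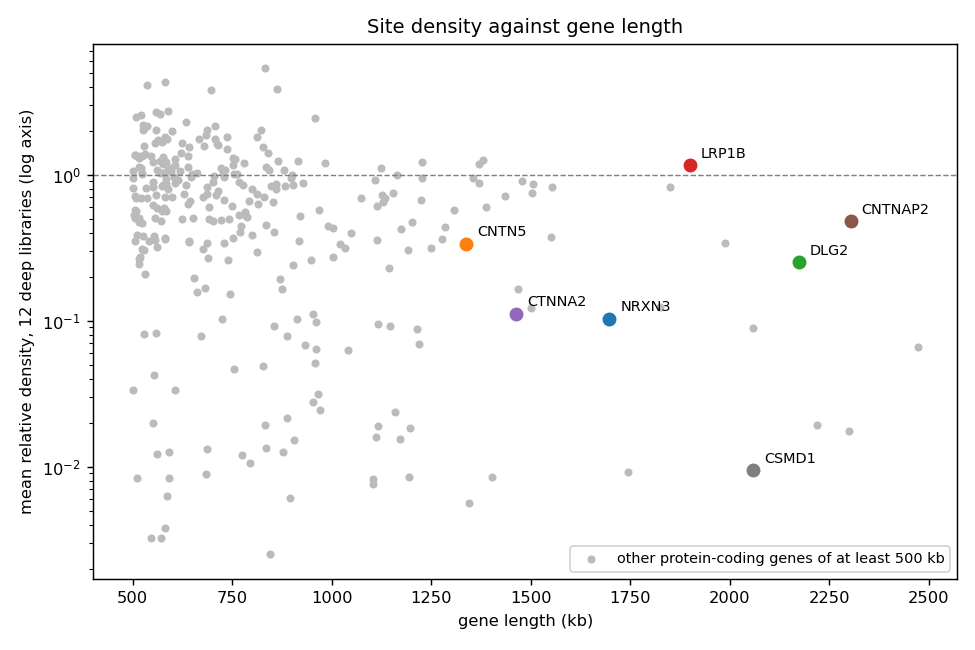
Mean relative density over the 12 deep libraries (log axis) against gene length in kb for the 314 protein-coding genes of at least 500 kb; the 7 genes are named and coloured, and the dashed line is the genome mean. LRP1B, at 1900 kb, is the one named gene above the line, and CSMD1, at 2060 kb, lies at 0.00946.

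The order of the 7 genes held in most pairs of neighbours. CSMD1 was below NRXN3 in 12 of 12 libraries, CTNNA2 below DLG2 in 12 of 12, CNTN5 below CNTNAP2 in 12 of 12 and CNTNAP2 below LRP1B in 12 of 12. NRXN3 and CTNNA2 did not differ beyond their spread: NRXN3 was the lower in 7 of 12 libraries, with means of 0.103 and 0.112. DLG2 was below CNTN5 in 10 of 12, and the ranges of the 2 genes overlapped. Those of CNTN5 and CNTNAP2 overlapped slightly as well, with a highest value of 0.429 for CNTN5 and a lowest of 0.424 for CNTNAP2.

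Relatives and other genes of known function placed these values. Of 19 relatives of the 7 genes, 16 were below 1, with a median of 0.509. The lowest was CNTNAP5, a paralogue of CNTNAP2, at 0.00611 ± 0.00667. The highest was DLG1, a scaffold of epithelial cell contacts and a paralogue of DLG2, at 2 ± 0.238 (SD, n = 12). CTNNA1, the alpha-catenin of epithelia, was at 1.62 ± 0.231, against 0.112 ± 0.028 for CTNNA2, and the ranges of these 2 genes did not overlap. DLG1 and DLG2 likewise did not overlap, with a lowest value of 1.69 for DLG1 and a highest of 0.371 for DLG2. Both epithelial relatives are far shorter, at 182 kb for CTNNA1 and 257 kb for DLG1, against 1463 kb for CTNNA2 and 2173 kb for DLG2. Gene length and tissue of known expression therefore cannot be told apart in these pairs. LRP1, a widely expressed relative of LRP1B, went the other way, at 0.216 ± 0.177. Its 85 kb held 0 to 7 sites per library.

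Of 30 other long genes known from neurons, 27 were below 1, with a median of 0.109. They ran from CDH12, a cadherin, at 0.00764 ± 0.00902 to DLGAP1, a partner of the DLG scaffolds, at 2.46 ± 0.177. Of 30 long genes that most cells express, 4 were below 1, with a median of 1.63. They ran from PTPRK, a receptor phosphatase, at 0.0201 ± 0.0136 to RAD51B, a DNA repair protein, at 3.88 ± 0.133. Both neuronal and widely expressed genes thus had members on either side of the genome mean. The lists were not matched in length: 29 of the 30 neuronal genes span at least 500 kb, against 13 of the 30 widely expressed ones. Length and known expression therefore cannot be told apart between the lists. The lists were drawn up from general knowledge of these genes with earlier results of the data known.

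LRP1B (gene 53353, chr2:140231423-142131016, 1900 kb) was the gene with most sites. It held 338, 288 and 349 sites in the 3 WT_PB libraries and 315, 314 and 348 in WT_hyPB. In WT_rePB it held 358, 365 and 374, and in WT_rehyPB 233, 232 and 286. As relative density these are 1.23, 1.32 and 1.32 in WT_PB, 1.22, 1.23 and 1.22 in WT_hyPB, 1.04, 1.02 and 1.1 in WT_rePB and 1.11, 1.01 and 1.07 in WT_rehyPB. All 6 libraries with a re-engineered transposase were below all 6 without.

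The sites of LRP1B were gathered at its upper-coordinate end, from which the gene is known to be transcribed. Cut into 20 equal parts, the gene had 1381 of its 3800 deep sites in the last part, at a relative density of 8.53 ± 2.2 (SD, n = 12). The part before it was at 2.18 ± 0.292, and the other 18 parts lay between 0.188 and 1.17. The densest 50 kb, chr2:142080423-142130422, ended 594 bp inside the upper bound and held 756 sites, at 8.93 ± 2.82. Without that window the gene was at 0.947 ± 0.0631, from 0.847 to 1.07, and in the 500 kb beyond the upper end the density was 1.12 ± 0.133.

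The difference between transposases was found in the same end. In the upper 10% of the gene, chr2:141941058-142131016, the relative density was 6.26 ± 0.358 in WT_PB and 6.56 ± 0.306 in WT_hyPB (SD, n = 3). With re-engineering it was 3.92 ± 0.17 in WT_rePB and 4.69 ± 0.498 in WT_rehyPB. The lowest library without re-engineering, at 5.87, was above the highest with it, at 5.26. In the rest of the gene the same groups were at 0.742 ± 0.0247, 0.63 ± 0.0343, 0.735 ± 0.0285 and 0.658 ± 0.075. There the WT_hyPB libraries, from 0.603 to 0.669, were all below those of WT_PB and WT_rePB, and WT_rehyPB, from 0.601 to 0.743, overlapped with each of the other groups. The cut at 10% was chosen after the profile was seen, so these values are a description.

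Sites in LRP1B also recurred. Of 2209 distinct positions, 76 were listed in at least 6 of the 12 deep libraries, and 1470 in 1 library only. The positions chr2:142038006 and chr2:142121287 were listed in 12 of 12. In all such counts of libraries per position, WT_hyPB replicates 1 and 2 enter as 2 libraries although they shared most of their sites. Over the groups other than WT_hyPB, 24% of LRP1B sites were listed in another replicate of their group, against 28.4% of all sites. In the other 6 genes this share was between 0 and 7.26%. No sequence of this region is printed, since no genome sequence was used here.

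**Figure D3:**
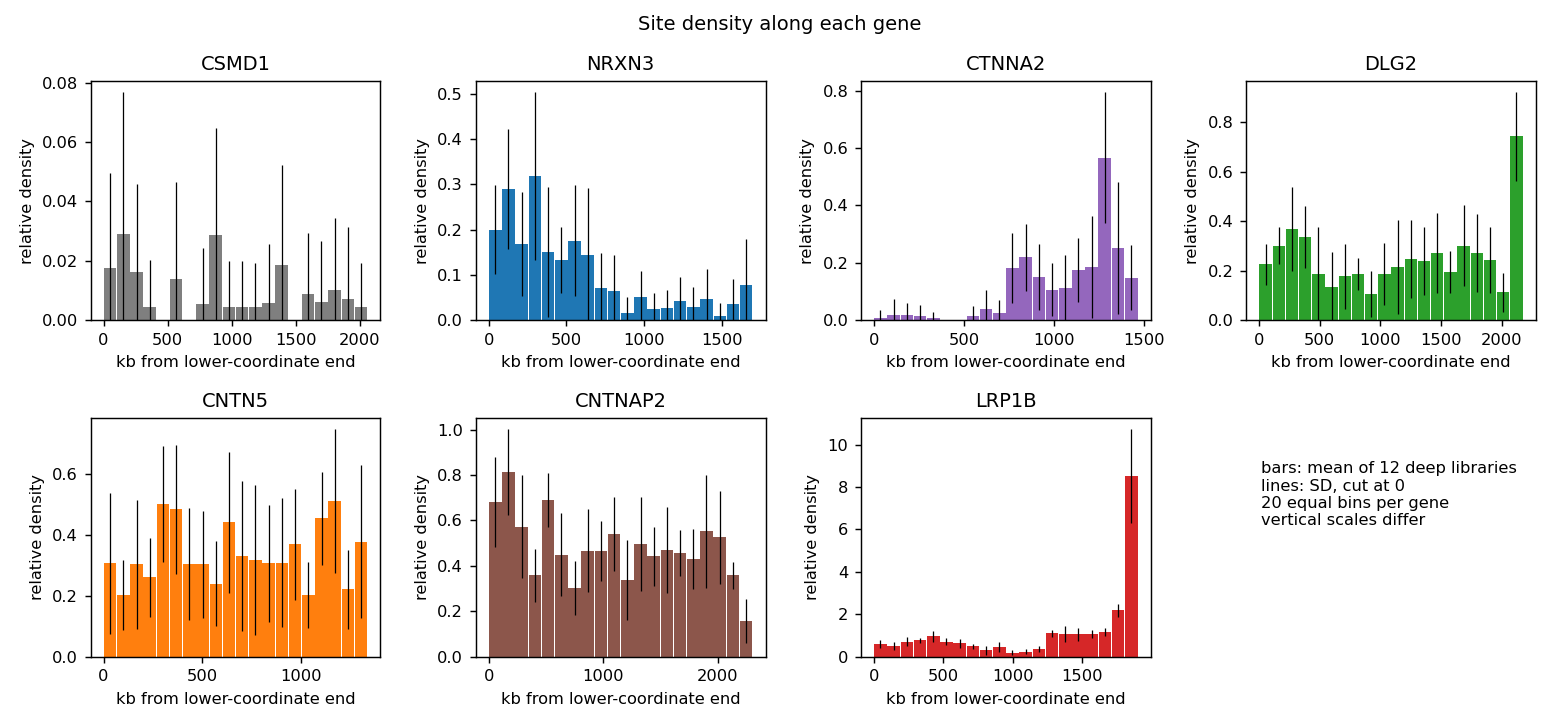
Relative density along each of the 7 genes in 20 equal bins, against kb from the lower-coordinate end; bars are means of the 12 deep libraries, lines the SD cut at 0, and vertical scales differ. LRP1B rises to 8.53 in its last bin, DLG2 to 0.743 in its last bin and CTNNA2 to 0.566 in its 18th bin, while NRXN3 is highest in its first 8 bins.

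CNTNAP2 (gene 26047, chr7:146116801-148420998, 2304 kb) held 111 to 196 sites per deep library, and its relative density was 0.478 ± 0.0389 (SD, n = 12). It was at 0.469, 0.478 and 0.566 in WT_PB, 0.51, 0.483 and 0.508 in WT_hyPB, 0.466, 0.436 and 0.475 in WT_rePB and 0.434, 0.424 and 0.492 in WT_rehyPB. The lowest WT_hyPB library was above the highest WT_rePB library, and all other pairs of groups overlapped. Its sites were spread along the whole gene, with bins between 0.156 and 0.812, and its densest 50 kb held 4.59% of its sites. The 500 kb below the gene were at 0.459 ± 0.0504 and the 500 kb above it at 1.85 ± 0.089.

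CNTN5 (gene 53942, chr11:99020949-100358885, 1338 kb) held 46 to 108 sites per deep library at a relative density of 0.338 ± 0.0485. It was at 0.342, 0.3 and 0.296 in WT_PB, 0.329, 0.283 and 0.315 in WT_hyPB, 0.387, 0.429 and 0.422 in WT_rePB and 0.317, 0.309 and 0.329 in WT_rehyPB. The 3 WT_rePB libraries were the highest of the 12. Its sites too were spread over the gene, and the flank above it was at 2.15 ± 0.185 against 0.27 ± 0.0723 below it.

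DLG2 (gene 1740, chr11:83455012-85628373, 2173 kb) held 52 to 115 sites per deep library at 0.252 ± 0.0624. In WT_PB it was at 0.366, 0.209 and 0.371, in WT_hyPB at 0.216, 0.191 and 0.185, in WT_rePB at 0.21, 0.242 and 0.262 and in WT_rehyPB at 0.294, 0.247 and 0.232. WT_PB replicate 2 stood apart from the other 2 replicates of its group. The last of 20 bins, at the end where the longest transcripts start, held 141 of 950 sites at 0.743 ± 0.178, and its densest 50 kb, chr11:85578012-85628011, were at 1.21 ± 0.267. The gene lies between regions of high density, with 1.46 ± 0.155 in the 500 kb below and 2.32 ± 0.167 in the 500 kb above. One position, chr11:85591445, was listed in 8 of 12 deep libraries.

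The start sites of 5 of the 7 genes have windows of 300 bases in RefSeq's promoter table for GRCh38.p14, 18 windows in all, so that the target sequence itself can be seen there. Among the positions listed by any deep library in any promoter window, 94% lay on TTAA (8565 of 9111). Of the 18 windows, 11 (61.1%) held TTAA, against 46.1% of 34961 windows of all genes, which have the same length. TTAA reads the same on both strands. Of the 23 copies in the 18 windows, 3 (13%) were listed in at least 1 deep library, against 30.1% of the 30489 copies in all windows. All 3 lay in 1 window of DLG2. Copies were counted window by window, and 9185 copies were listed over all windows, more than the 8565 positions on TTAA. A copy in overlapping windows can therefore count more than once. The 250 bases before the start are printed from 5′ to 3′ along the gene for 3 windows, with TTAA in capitals: the DLG2 window with sites, the DLG2 window with most copies and no site, and the CTNNA2 start at the lower bound of the gene.
DLG2, chr11:85627345-85627594, minus strand: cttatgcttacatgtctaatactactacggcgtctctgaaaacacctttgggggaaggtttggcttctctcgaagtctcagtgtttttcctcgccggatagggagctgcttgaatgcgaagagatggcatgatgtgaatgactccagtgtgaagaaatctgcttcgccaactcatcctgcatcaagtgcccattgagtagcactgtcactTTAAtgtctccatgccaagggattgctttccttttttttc
DLG2, chr11:84923422-84923671, minus strand: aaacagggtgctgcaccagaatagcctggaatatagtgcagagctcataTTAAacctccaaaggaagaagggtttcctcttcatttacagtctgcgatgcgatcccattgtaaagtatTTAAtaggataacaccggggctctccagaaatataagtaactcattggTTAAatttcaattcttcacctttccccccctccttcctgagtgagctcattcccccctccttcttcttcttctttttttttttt
CTNNA2, chr2:79185127-79185376, plus strand: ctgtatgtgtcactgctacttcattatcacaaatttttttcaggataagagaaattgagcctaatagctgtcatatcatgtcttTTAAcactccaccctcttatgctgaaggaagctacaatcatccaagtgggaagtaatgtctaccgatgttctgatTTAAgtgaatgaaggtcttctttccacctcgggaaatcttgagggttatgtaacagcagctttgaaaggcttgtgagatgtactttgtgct
The first DLG2 window holds 3 copies, all listed in a deep library, and 1 of them falls in the printed stretch. That copy, at base 211, is chr11:85627381 and was listed in 4 of 12 deep libraries and in 0 of 15 shallow ones. The 3 copies of the second stretch, at bases 50, 119 and 167, were listed in 0 of 12 deep libraries. The 2 copies of the CTNNA2 stretch, at bases 85 and 160, were also listed in 0 of 12. A copy without a site says only that no insertion was listed there.

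CTNNA2 (gene 1496, chr2:79185377-80648780, 1463 kb) held 14 to 34 sites per deep library at 0.112 ± 0.028. It was at 0.0899, 0.107 and 0.148 in WT_PB, 0.11, 0.0963 and 0.142 in WT_hyPB, 0.109, 0.0653 and 0.103 in WT_rePB and 0.0862, 0.119 and 0.165 in WT_rehyPB, and all groups overlapped. Its first 10 bins, which begin at the start printed above, did not exceed 0.0397. A stretch of 201.7 kb, chr2:79521896-79723568, held no site in any of the 12 libraries. The densest 50 kb, chr2:80458377-80508376, held 68 of its 282 sites (24.1%) at 0.809 ± 0.361, and chr2:80496959 within it was listed in 6 libraries. The gene encloses LRRTM1, a synaptic adhesion protein, so that sites there count for both genes.

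NRXN3 (gene 9369, chr14:78170373-79868291, 1698 kb) held 11 to 36 sites per deep library at 0.103 ± 0.0303. It was at 0.143, 0.139 and 0.144 in WT_PB, 0.112, 0.083 and 0.0433 in WT_hyPB, 0.0876, 0.113 and 0.0789 in WT_rePB and 0.117, 0.0975 and 0.0835 in WT_rehyPB. The 3 WT_PB libraries were the highest of the 12. Its profile ran opposite to that of CTNNA2. The first 8 bins were between 0.132 and 0.318 and the last 12 did not exceed 0.0784, and the flanks followed, at 1 ± 0.0943 below the gene and 0.118 ± 0.0482 above it.

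CSMD1 (gene 64478, chr8:2935361-4994914, 2060 kb) was nearly empty. It held 0, 3 and 2 sites in WT_PB, 2, 6 and 2 in WT_hyPB, 5, 4 and 3 in WT_rePB and 1, 3 and 3 in WT_rehyPB, 34 in all where the genome mean would give 3583. The mean relative density was 0.00946 ± 0.00539. The 34 sites lay at 32 positions without a cluster, and the longest stretch with none, 258.3 kb, was chr8:3471079-3729420. The surroundings were as empty, at 0.00486 ± 0.0102 in the 500 kb below and 0.0163 ± 0.0151 above. Of the sites, 17 were read on each strand.

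Sites within the 7 genes had lower peaks than the library at large. The median height over the deep libraries was 11 for all sites, 10 for LRP1B and CTNNA2, 9 for CNTNAP2, CNTN5, NRXN3 and DLG2, and 7 for CSMD1. A height of at least 20 was reached by 28.2% of all sites, by 22.1% in LRP1B, 19.5% in CTNNA2, 16.3% in CNTNAP2, 15.6% in CNTN5, 14.3% in DLG2, 9.97% in NRXN3 and 5.88% in CSMD1. Height counts PCR reads from RNA without molecular identifiers and is no count of cells. Positions read in both orientations made up 5.21% of all sites and 4.95% in LRP1B, but at most 1.42% in the other genes.

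Density within a height class showed the same. Among sites of height 5 or 6 the 7 genes summed had a relative density of 0.443 ± 0.0617, and among sites of height 50 or more 0.142 ± 0.0211 (SD, n = 12), with no overlap between the classes. For LRP1B the 2 values were 1.35 ± 0.199 and 0.627 ± 0.15, and for CNTNAP2 0.584 ± 0.113 and 0.133 ± 0.0947. A list that keeps only tall peaks therefore has fewer sites in these genes relative to its genome mean.

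**Figure D4:**
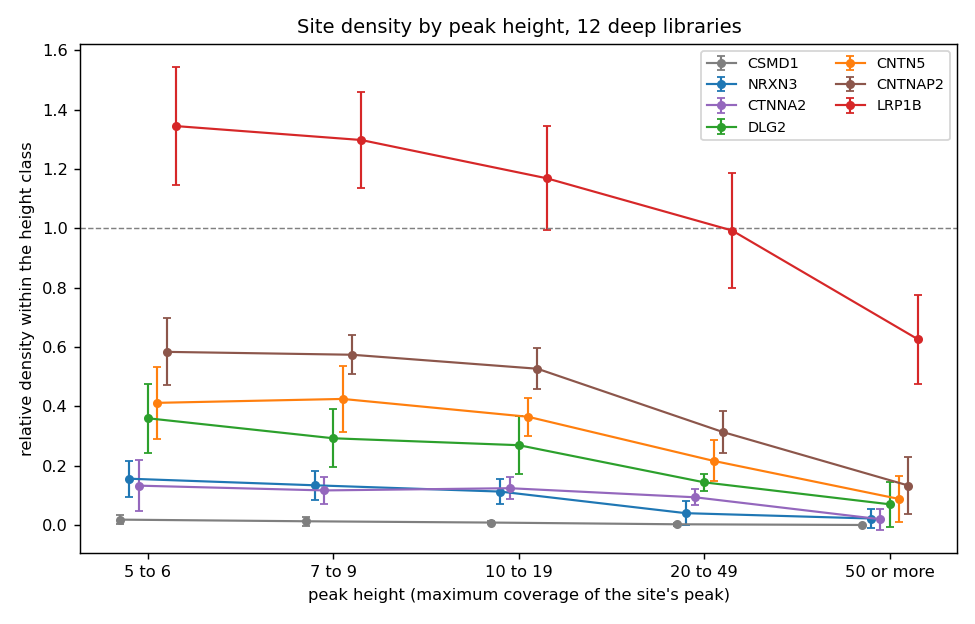
Relative density of the 7 genes among sites of 5 classes of peak height in the 12 deep libraries, mean ± SD; each class is set against the genome mean of the same class. LRP1B goes from 1.35 at heights of 5 to 6 to 0.627 at 50 or more, and CSMD1 from 0.018 to 0.

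The effect of the transposase was tested in the 12 deep libraries with limma voom on the sites per gene, over 5615 protein-coding genes with a mean of at least 10 sites. CSMD1 did not reach that mean, so 6 of the 7 genes were tested. The hyperactive form changed none of the 6 at an adjusted p under 0.05, where 2.87% of all tested genes were called (161, of which 59, or 1.05%, were higher and 102, or 1.82%, lower). The median log2 change of the 6 was -0.11, against 0 for all genes. The nearest were DLG2, at -0.28 ± 0.098 (SE, adjusted p = 0.1045), and NRXN3, at -0.43 ± 0.157 (adjusted p = 0.1216). DLG2 passed when WT_PB replicate 2 was left out, at -0.4 (adjusted p = 0.002412, from there to 0.4141 over 18 alternatives). Among the other long neuronal genes 1 of 19 tested was higher, DLGAP1, and 9 were lower. Of the long widely expressed genes none of 29 was called.

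Re-engineering lowered 1 of the 6, LRP1B, and 7.05% of all genes were called in this comparison (207, or 3.69%, higher and 189, or 3.37%, lower). LRP1B fell by 0.25 on the log2 scale (SE 0.036, adjusted p = 2.269e-06), with all 6 libraries below all 6 controls, and the adjusted p ran from 8.565e-07 to 0.0001748 over 18 alternatives. With the linked WT_hyPB libraries averaged it was at 5.021e-06. The other 5 genes did not pass. CNTN5 was at 0.22 ± 0.084 (adjusted p = 0.1022) and CNTNAP2 at -0.14 ± 0.056 (adjusted p = 0.1176). The median of the 6 was -0.11 against 0.03 for all genes. Of the other long neuronal genes 1 of 19 was called, DAB1, lower, and none of the 9 relatives. Of the long widely expressed genes 4 of 29 were higher, DYM, TRAPPC9, VPS13B and ZFAND3, and 1 was lower, ATXN1.

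Whether re-engineering acted differently with and without the hyperactive form was tested as an interaction, which 0.178% of genes passed (10). Of these 7 (0.125%) were positive and 3 (0.0534%) negative, or 5 and 5 when libraries were scaled by their sites in protein-coding genes. None of the 6 did. DLG2 came closest at 0.77 ± 0.197 (adjusted p = 0.08245), and it passed without WT_PB replicate 2 at 1.01 (adjusted p = 0.0006712, from there to 0.2183 over 18 alternatives). NRXN3 was at 1.03 ± 0.313 (adjusted p = 0.1675). The value for DLG2 rests on the WT_PB group, where replicate 2 was at 0.209 and the other 2 libraries were at 0.366 and 0.371.

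In the 15 shallow libraries 3 of the 7 genes had any site. LRP1B held 30, CNTNAP2 3 and DLG2 4. CSMD1, CNTN5, NRXN3 and CTNNA2 held 0 in every shallow library. For CNTN5 the genome mean would give 41.4 sites over the 15 libraries, so 0 allows a relative density of up to 0.0725 (3 sites), at least 4.66-fold lower than the 0.338 of the deep libraries. For NRXN3 and CTNNA2 the limits were 0.0571 and 0.0663, at least 1.81-fold and 1.69-fold lower. For CSMD1 the limit of 0.0471 is above its deep mean, so no difference was detectable at this depth. These limits cover counting error only.

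LRP1B was the one gene with sites in all 5 shallow groups. It held 3, 0 and 5 sites in short_PB, 3, 0 and 2 in short_hyPB, 1, 0 and 0 in sym_rePB, 1, 2 and 1 in sym_rehyPB and 3, 5 and 4 in WT_PBat. Pooled per group, the relative densities were 0.465, 0.365, 0.174, 0.518 and 0.834, with exact 95% Poisson intervals of 0.201 to 0.916, 0.119 to 0.852, 0.0044 to 0.969, 0.141 to 1.33 and 0.431 to 1.46. The intervals overlapped. The 4 groups with short or symmetric transposons and WT_PBat therefore could not be ranked.

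The shallow sites of LRP1B also gathered at its upper end. Of the 30, 24 (80%) were in the upper 10%, against 1737 of 3800 (45.7%) in the deep libraries, and 25 were at a position that a deep library also listed. The 30 lay at 22 distinct positions and the 3800 at 2209, so a position listed by several libraries counts more than once in both shares. All 12 sites of WT_PBat were in the upper 10%, at 8.47 ± 2.69 (SD, n = 3), and none in the rest, where the genome mean would give 12.95 sites and 0 allows up to 0.232. The position chr2:142037350 was listed in 7 of 15 shallow libraries, from all 5 shallow groups, and in 4 of 12 deep ones. The linked WT_PBat replicates 1 and 3 are among the 7. The position chr2:142121486 was listed in 3 shallow and 11 deep libraries. In DLG2, 1 of 4 shallow sites and in CNTNAP2 2 of 3 were at positions known from a deep library.

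Short and wild-type transposons were set against each other within each shared transposase by a quasi-Poisson fit per gene over 314 genes, with limma's moderated dispersion. The short transposon had fewer sites relative to the genome in 4 of the 7 genes, where 30.9% of all 314 were called (97, of which 92, or 29.3%, were lower and 5, or 1.59%, higher). LRP1B fell by 1.58 on the log2 scale (SE 0.401, adjusted p = 0.003547 by the quasi-Poisson fit with limma), from 1.26 ± 0.051 (SD, 6 libraries) to a pooled 0.421. CNTNAP2 fell by 2.65 (SE 0.834, adjusted p = 0.005126 by the same limma-moderated fit). DLG2 fell by 2.24 (SE 1.09, adjusted p = 0.04225 by the same limma-moderated fit). CNTN5 went to 0 of 21.8 sites at the genome mean, at least 2.25-fold lower (adjusted p = 0.01326 by the same limma-moderated fit). NRXN3 and CTNNA2, also at 0, did not pass, at adjusted p = 0.05996 and 0.07262, and CSMD1 was at 0.572. The middle one of the 7 genes had 0 sites with the short transposon, and the median over all 314 was -1.7.

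These calls did not hold in every setting. DLG2 was lost when any 1 of the 12 libraries other than WT_PB replicate 2 was left out, with adjusted p up to 0.1045, and with the linked libraries averaged, at 0.067. In that last setting LRP1B, CNTNAP2 and CNTN5 kept their calls, at 0.007593, 0.009921 and 0.01967 by the limma-moderated fit. With a minimum height of 10 none of the 7 was called, and LRP1B was at -1.02 (adjusted p = 0.4252). With the 2814 tallest sites of each library LRP1B turned to 0.22 (adjusted p = 0.9081, the highest over 22 alternatives, the lowest being 0.0005544).

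With the symmetric transposon 1 of the 7 genes was called lower, where 16.9% of 313 genes were called (53, of which 49, or 15.7%, were lower and 4, or 1.28%, higher). CNTNAP2 had 0 sites of 16.3 at the genome mean, at least 2.48-fold below 0.455 ± 0.0272 (adjusted p = 0.03488 by the quasi-Poisson fit with limma). That call was lost, at adjusted p up to 0.0743, when any 1 of 12 libraries other than sym_rehyPB replicate 2 was left out. Without any 1 of the 12 the count over all genes lay between 8 and 18, with 4 higher each time and 4 to 14 lower, and over genes of at least 300 kb 9 were higher and 6 lower. LRP1B was at -1.51 ± 0.646 (adjusted p = 0.0552) with 5 sites, and CNTN5 at 0 sites (adjusted p = 0.06722).

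For piggyBat against piggyBac, both with wild-type transposons, none of the 7 genes was called by the quasi-Poisson fit, and 0% of 312 genes (0; 108 had an unadjusted p under 0.05, 105 of them lower). limma voom called 206 genes here and limma with a prior of 2 sites 242, settings that are described with the processing. LRP1B was at -0.63 ± 0.419 (adjusted p = 0.254), with 12 sites and a pooled density of 0.834. CNTNAP2 had 0 sites of 17.5 at the genome mean, at least 2.93-fold below the 0.504 of WT_PB (adjusted p = 0.09642). It was called when libraries were scaled by their sites in protein-coding genes (adjusted p = 0.04775, with a range of 7.079e-07 to 0.451 over 14 alternatives). This comparison shares the WT_PB libraries with the short-transposon comparison.

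Among equal numbers of tall sites the deep and shallow libraries differed by less than their spread in these genes. When each library was held to its 2814 tallest sites, the 7 genes summed were at 0.0763 ± 0.0557 in the 12 deep libraries and 0.0832 ± 0.0832 in the 15 shallow ones, against 0.36 ± 0.0272 and 0.0841 ± 0.0595 over all sites. LRP1B was at 0.472 ± 0.407 and 0.529 ± 0.501, with 10 and 14 sites. DLG2 had 1 site in each set, and the other 5 genes had 0 in both. In the deep libraries the summed relative density was thus lower among the tallest sites than over all sites. Whether transposon type adds to this was not detectable with so few sites.

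**Figure D5:**
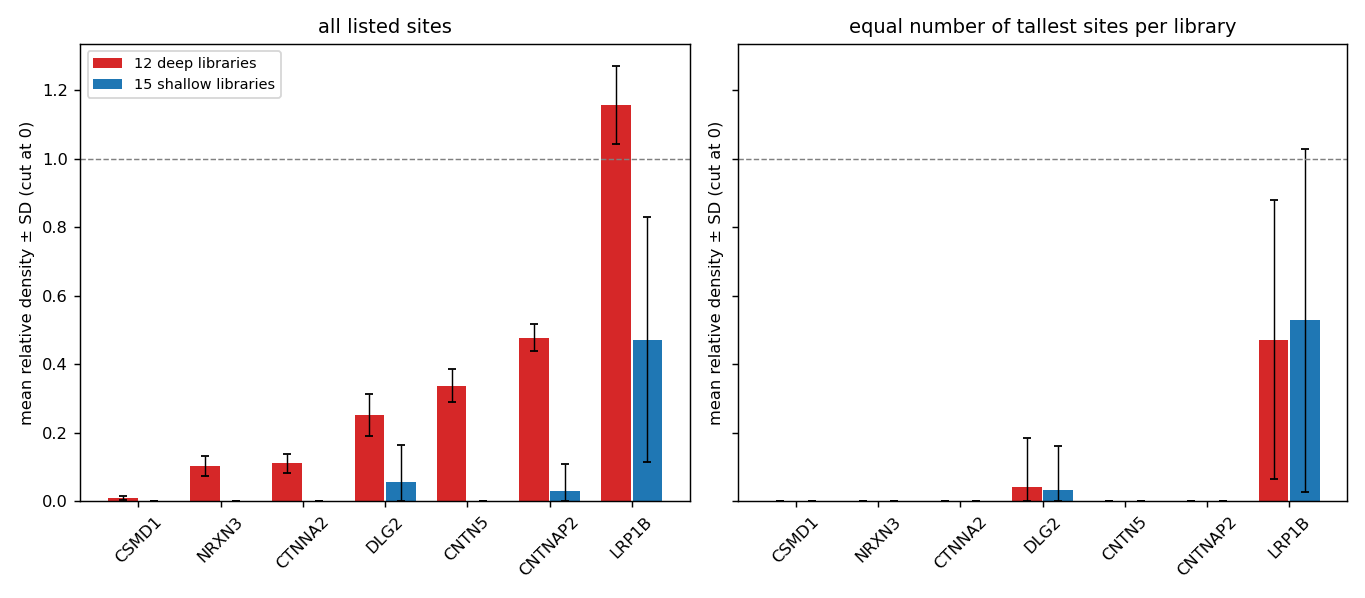
Mean relative density ± SD (cut at 0) of the 7 genes in the 12 deep and 15 shallow libraries, over all listed sites and over the 2814 tallest sites of each library. LRP1B is at 1.16 and 0.472 over all sites and at 0.472 and 0.529 over the tallest.

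The pattern over the 9 group means of each gene was set against those of the 307 other genes of at least 500 kb, by the distance between log2 values of relative density plus 0.05. CSMD1 was nearest to UNC5D, a netrin receptor, at a distance of 0.143, with deep means of 0.00946 and 0.0122. NRXN3 was nearest to ERC2, a protein of the presynaptic active zone, at 0.178. CTNNA2 was nearest to PCDH15, a protocadherin of hair cells, at 0.337, and CNTN5 to CPNE4, a copine, at 0.538. CNTNAP2 was nearest to CNBD1 at 0.734. LRP1B, at 1.71 from ZFHX3, a transcription factor, and DLG2, at 2.15 from TRPM3, a cation channel, had the largest distances. The shallow groups enter these distances with few sites. CSMD1, NRXN3, CTNNA2 and CNTN5 had no shallow site and so match any gene without one there, and DLG2 had 4. The distances therefore depend on single sites and on the added 0.05.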

How the data were processed

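Insertion sites were read from RNA of HCT116 cells in 27 libraries. Per the submitters' processing notes, cutadapt 3.4 and HISAT2 2.2.1.0 were used on hg38/GRCh38.p5; the peak caller and any duplicate removal are not given in the sources used here. The authors deposited 1 peak list per library, with coverage signal (sum and maximum, the height) that is not scaled to depth. A constant per file, 142666 to 12051190, was read as the number of mapped reads, which no header states. A site was the first base of the 4-base target, from the start of a plus-strand peak or the end minus 3 of a minus-strand peak, counted once per library on chromosomes 1 to 22 and X. Gene bounds came from RefSeq's GRCh38.p14 table. Its gene list has no strand.

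The 7 genes and all lists were chosen with earlier results of these data known. Sites per gene were tested with limma 3.58.1 in R 4.3.3 (voom, Benjamini-Hochberg over all genes tested) in the deep libraries. The planned voom fit over all 27 libraries was tested on simulated data and called unchanged genes. A quasi-Poisson fit per gene (pairs of groups as strata, limma's squeezed dispersion of at least 1) therefore replaced it after the data were seen. Whether the unchanged genes called had 0 sites in the shallow libraries was not recorded. Named genes were the 7, the lowest and highest of each list, CTNNA1, DLG1 and LRP1, and the nearest gene by pattern; others named in a test were chosen after their values were seen. A value of 0 was bounded by 3 sites. Alternatives were a height of 10, other scalings, thinning, equal numbers of tallest sites, other tests and leaving out libraries. The relatives' result for the hyperactive form is not reported here.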

Additional observations from a re-analysis of the deposited data

How the results depend on the processing

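The summed density of the 7 genes in the deep libraries, 0.36, was 0.31 with a minimum height of 10, 0.298 against sites in protein-coding genes, 0.0763 with the tallest sites in equal number and 0 after thinning, which left 127 to 548 sites per deep library. Leaving out 1 library gave 0.354 to 0.363, and 0.0756 to 0.0901 in the shallow libraries. The hyperactive count of 161 genes was 67 at height 10, 93 with linked libraries averaged, 92 with no minimum number of sites and 79 to 186 without 1 library. The interaction count of 10 was 3, 4 and 5 in these settings and 1 to 18 without 1 library. Re-engineering called 396 genes, 238 with linked libraries averaged and 230 to 437 without 1 library, the lowest without WT_hyPB replicate 1, and LRP1B was called in all 18 alternatives. The short-transposon count of 97 was 3 at height 10, 0 thinned, 2 with the tallest sites, 170 over genes of at least 300 kb, 245 with limma trend, 219 with the planned voom and 68 to 92 without 1 library. The symmetric count of 53 was 1, 0, 0, 15, 288, 183 and 8 to 18 in the same order. piggyBat's 0 became 18 scaled by sites in protein-coding genes, 242 with limma trend and 206 with voom, and was 0 without any 1 library. That scaling moved the median by -0.31. Voom put CSMD1, with 0 shallow sites, higher with the short (3.46), symmetric (4.23) and piggyBat (4.11) transposons, and NRXN3 (1.38) and CTNNA2 (1.45), also at 0, higher with the symmetric one. LRP1B's short-transposon value reversed to 0.22 with the tallest sites. After thinning LRP1B, CNTNAP2 and DLG2 also reversed in direction (adjusted p = 0.7534 each by the limma-moderated fit). The deep libraries then held 0 sites in these genes, where the genome mean would give 2.43 for LRP1B over all 12. The cause of each change was not tested.

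Replicate numbers did not pair the deep libraries: deviations of same-numbered deep libraries correlated at -0.052 to 0.068 (18 pairs). Whether they pair the shallow libraries was not checked. With the replicate block the short-transposon count was 1 and the symmetric count 2, and none of the 7 genes was called in either: for the short transposon LRP1B, CNTNAP2 and CNTN5 were at adjusted p = 0.06475 and DLG2 at 0.09263, and for the symmetric one CNTNAP2 was at 0.101, by the limma-moderated fit. The block moved the interaction count to 12, with DLG2 called (adjusted p = 0.04867 by limma), the hyperactive count to 153 and the re-engineering count to 408.

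Depth limits the shallow groups: at 2814 to 9212 sites, a gene of 2 Mb at the genome mean holds few sites.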
